A study of Mus musculus with 8 samples.

Results

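Nuclear receptors are transcription factors that read small lipophilic ligands or, for the orphan receptors, act without a known physiological ligand, and bind DNA as monomers, homodimers or heterodimers with a retinoid X receptor (RXR). In liver they set the transcription of genes for fatty acid oxidation, bile acid and sterol handling, drug metabolism and glucose production. The genes described here are 33 members of this family, taken by symbol from a count table of 55487 mouse genes, and 28 of the 33 passed the filter on low counts among 13312 genes tested.

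The table holds bulk liver RNA sequencing of male C57Bl/6J mice about 10 weeks old. The control group (n = 4 libraries) received water by oral gavage, the sorbate group (n = 4 libraries) received 17 mg of potassium sorbate, a food preservative, and both were taken 4 hours later. No transgene or other allele is named in the labels, and they do not state whether the libraries of a group are separate animals. The p-values therefore rest on the spread between libraries, which may be technical. The series title links sorbate to a lysine acyl mark and to inflammation genes, and the comparison asks which liver transcripts differ with sorbate.

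Total counts per library ran from 15773932 to 25844731. All 8 hepatocyte markers were detected in the table, at a summed 70411 to 84866 CPM (counts per 1000000 of the scaled library total) in controls and 82140 to 105715 CPM with sorbate, while 5 T and B cell markers summed to at most 1.44 CPM. One library stood apart: on the first principal component, which held 53.6% of the variance, control 2 scored 15.4, the other controls −49.1 to −42.1 and the sorbate libraries 21.9 to 37.8. Where a receptor's call changed without control 2, its value without that library is given.

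Liver receptor transcripts were dominated by a few genes. Levels between genes are compared as TPM, that is counts per kilobase of merged exons scaled to 1000000 per library. The 33 receptors summed to 877 ± 136 TPM in controls and 1043 ± 100.4 TPM with sorbate (SD, n = 4 each). TPM lacks the scaling between libraries that CPM carries. In CPM the sums overlapped, at 1661 to 2154 in controls and 1774 to 2059 with sorbate. Hnf4a (ENSMUSG00000017950, GRCm38 chromosome 2, 163506808 to 163572910), the hepatocyte nuclear factor that maintains hepatocyte identity, stood at 469, 232, 340 and 268 TPM in controls 1 to 4 and at 375, 295, 248 and 303 TPM in sorbate 1 to 4. It held 37.3% of the summed control level, and the 3 most abundant genes together held 67.2%.

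Rxra, the main hepatic RXR, followed with 158 ± 31.9 TPM in controls, and Nr1h4, which encodes the bile acid receptor FXR, with 104 ± 5.82 TPM. The controls of each of these 3 genes did not overlap those of the next in order. Nr1i2, the xenobiotic receptor PXR, had 56.4 ± 9.38 TPM, Nr2f6, an orphan receptor of the COUP-TF group, 47.4 ± 3.71 TPM, and Ppara, the fatty acid receptor PPAR-alpha, 43.3 ± 6.65 TPM (SD, n = 4). The ranges of Nr1i2 and Nr2f6, and of Nr2f6 and Ppara, overlapped over the 4 controls. With the longest transcript as the length, Nr2f6 ranked above Nr1i2.

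Within the 33 genes the level dropped after Ppara by a factor of 2.25 to Nr5a2, which encodes LRH-1, a regulator of bile acid and sterol genes, at 19.3 ± 3.25 TPM. Nr3c1, the glucocorticoid receptor, and Nr1h2, the oxysterol receptor LXR-beta, each averaged 18.9 TPM, and Rxrb closed the 10 most abundant of the 33 with 13.4 ± 1.14 TPM. Receptors outside the 33 lie between these ranks, with Nr1h3 at 93.7 ± 5.36 TPM and Nr0b2 at 75.3 ± 11.7 TPM above Nr1i2. Further down, 16 genes had a mean above 1 and up to 10 TPM in controls, and 7 a lower one. In 26 of the 32 neighbouring pairs of the order the 4 controls overlapped, so most single ranks are not separated by these libraries. With sorbate Nr4a1 ranked 17 in place of 26 and Esr1 25 in place of 16, the largest moves in either direction. The Nr4a1 rank rests largely on sorbate 2, at 17.9 TPM against 1.53 to 5.82 TPM in the other sorbate libraries. Ppara ranked 4 in place of 6 and Esrra 9 in place of 13.

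**Figure D1:**
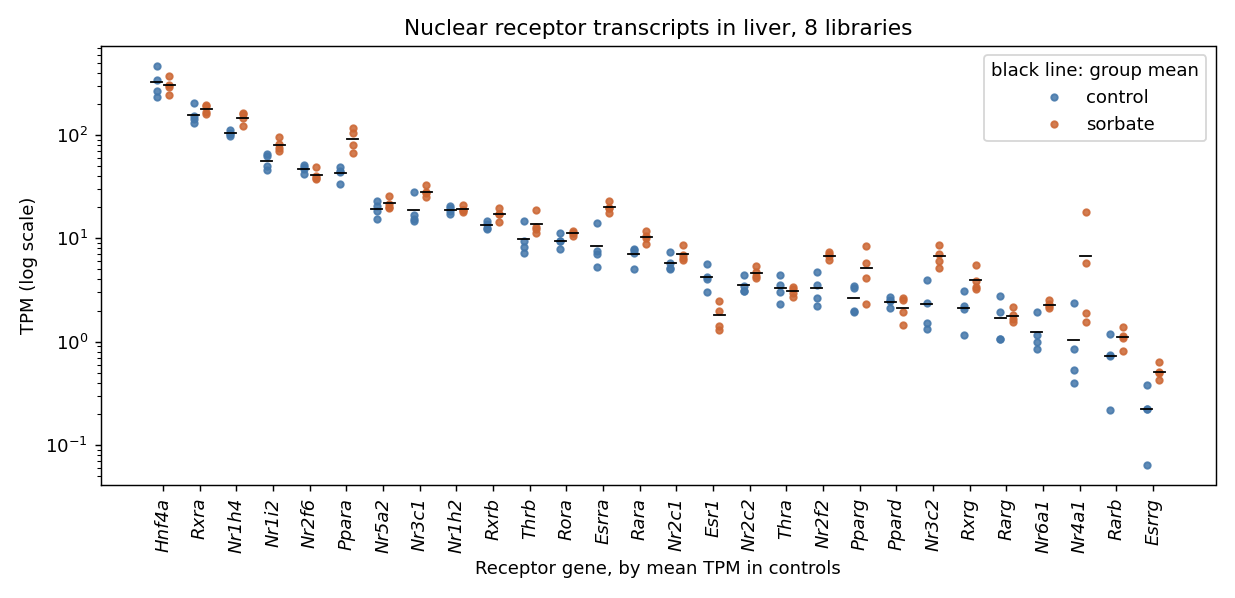
TPM (log scale) of the 28 tested receptor genes in 4 control and 4 sorbate libraries (points), with the group means as black lines, ordered by the control mean. Hnf4a, Rxra and Nr1h4 lead. Among the abundant genes Ppara, Nr1h4 and Nr1i2 show separated groups in TPM, and those of Nr1h4 overlap in CPM.

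With sorbate 5 receptor genes rose and 1 fell, while 22 tested members did not pass the threshold of 0.05 on the adjusted p. Ppara, Nr3c2, Esrra, Nr2f2 and Nr6a1 rose by 1.70- to 2.69-fold, and Esr1 fell by a factor of 2.62. Among all genes tested 6.14% were called higher and 6.30% lower, together 12.4% (818 and 838 genes, or 1300 and 550 with scaling by library size alone). The median log2 fold change was 0.34 over the 28 tested members and −0.02 over all genes tested. Of the 22 members that did not pass, 17 had a 95% interval within 2-fold in either direction and 7 within 1.5-fold. Libraries of the groups did not overlap in CPM for 10 of the 28 members (9 higher, 1 lower with sorbate), and for 17.7% of all genes tested. The members were chosen with earlier results of these data known, so these counts describe them and test nothing about the family.

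**Figure D2:**
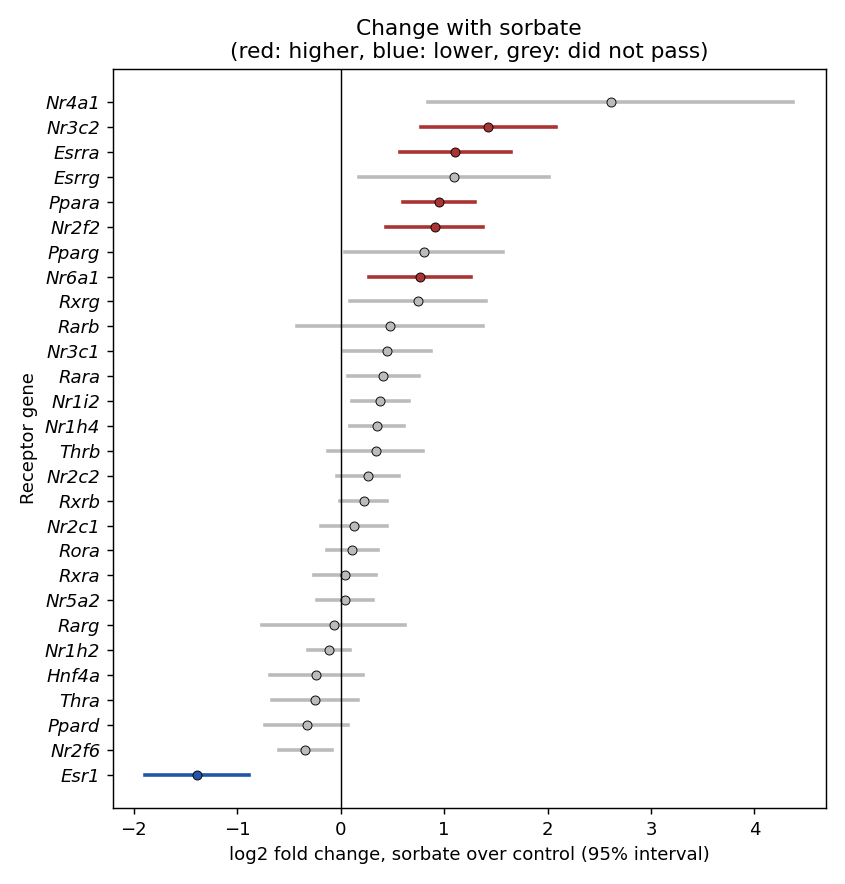
Log2 fold change of sorbate over control for the 28 tested receptor genes with its 95% interval, unadjusted for the number of genes. The 5 genes called higher are red, Esr1 (lower) is blue, and the 22 that did not pass are grey.

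The PPARs are fatty acid sensors that bind DNA with an RXR. PPAR-alpha drives fatty acid oxidation and ketone production in hepatocytes, PPAR-gamma is the adipocyte form and PPAR-delta is found in most tissues. Ppara (ENSMUSG00000022383, chromosome 15, 85734983 to 85802819) had 73.7, 84.4, 78.4 and 64.6 CPM in controls 1 to 4 and 128, 162, 112 and 181 CPM in sorbate 1 to 4. Every sorbate library lay above every control, and control 2 was the highest control. The rise was 0.95 on the log2 scale (SE 0.16, adjusted p = 0.00569), and it was called in all 14 alternative analyses, with log2 fold changes from 0.83 without sorbate 4 to 1.07 with scaling by library size alone. Ppara held 87.9% to 91.7% of the summed PPAR level in TPM in controls and 90.5% to 94.1% with sorbate.

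Pparg averaged 3.55 ± 0.951 and 6.24 ± 2.99 CPM (log2 fold change 0.81, 95% interval 0.04 to 1.57, adjusted p = 0.149), with sorbate 2 alone at 10.0 CPM and sorbate 1 at 2.88 CPM, within the control range. None of 4 markers of adipocytes, a cell type rich in Pparg, passed the filter, and they summed to 0.168 to 1.55 CPM in controls and 0.243 to 0.800 CPM with sorbate. Ppard had 8.35 ± 0.351 and 6.62 ± 1.66 CPM (log2 fold change −0.33, 95% interval −0.73 to 0.07). Neither gene passed the test.

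The RXR genes, which encode the shared heterodimer partner, did not pass. Rxra had 483, 346, 374 and 361 CPM in the controls and 433, 373, 382 and 425 CPM with sorbate, and its groups overlapped (log2 fold change 0.04, 95% interval −0.25 to 0.34). Rxrb had 25.3, 24.6, 22.4 and 24.3 CPM in controls and 28.4, 31.9, 24.8 and 27.5 CPM with sorbate (log2 fold change 0.22, 95% interval −0.01 to 0.45). Rxrg, the scarcest of the 3 at 2.13 ± 0.805 TPM in controls, had one of 0.75 (adjusted p = 0.125) with no overlap of the groups, and passed without control 2 (0.97, adjusted p = 0.0264). Summed over the 14 members that bind DNA with an RXR, partner transcripts were 235 to 258 TPM in controls and 320 to 443 TPM with sorbate, against 147 to 220.1 and 179 to 218 TPM of RXR transcripts. The level of these 14 partners was thus 1.17 to 1.62 times the RXR level in controls and 1.70 to 2.30 times with sorbate. Nr1h4 (mean 104 TPM in controls, 148 TPM with sorbate), Nr1i2 (56.4, 81.0) and Ppara (43.3, 92.5) were the most abundant of the 14. Of the 14 only Ppara passed the test. Partners outside the members, among them Nr1h3 and Nr1i3, are not in the sum over the 14.

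No other lipid or xenobiotic sensor among the members passed, and Nr1h4 and Nr1i2 had adjusted p between 0.05 and 0.10. Nr1h4 had 97.9, 105, 108 and 128 CPM in controls and 140.2, 151, 122.5 and 147 CPM with sorbate, where sorbate 3 fell within the control range (log2 fold change 0.35, SE 0.12, adjusted p = 0.0761). Nr1i2 had 69.4, 57.4, 75.7 and 59.0 CPM in controls and 87.6, 98.0, 78.3 and 77.3 CPM with sorbate, without overlap (log2 fold change 0.38, SE 0.13, adjusted p = 0.0718). DESeq2 called both higher (adjusted p = 0.0331 and 0.0367), and so did scaling by library size alone. Nr1h2 had 29.97, 29.2, 27.6 and 28.8 CPM in controls and 26.3, 28.8, 27.5 and 24.2 CPM with sorbate, the smallest coefficient of variation over controls of any tested member, with a log2 fold change of −0.11 (95% interval −0.32 to 0.09, adjusted p = 0.448). The vitamin D receptor Vdr was counted 2 times over the 4 controls and 6 times over the 4 sorbate libraries and was not tested.

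Among the steroid receptors 1 gene rose and 1 fell. Nr3c2 (ENSMUSG00000031618, chromosome 8, 76899442 to 77245012), the mineralocorticoid receptor, had 4.23, 11.5, 6.91 and 4.23 CPM in controls 1 to 4 and 16.4, 18.5, 14.5 and 22.5 CPM in sorbate 1 to 4. The groups did not overlap, and control 2 was the highest control. The log2 fold change was 1.43 (SE 0.30, adjusted p = 0.0135), a call kept in all 14 alternatives, from 1.01 with 1 surrogate variable to 1.82 without control 2.

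Esr1 (ENSMUSG00000019768, chromosome 10, 4611593 to 5005614), the estrogen receptor alpha, had 33.2, 18.4, 25.96 and 27.7 CPM in controls 1 to 4 and 8.04, 7.20, 11.7 and 13.5 CPM in sorbate 1 to 4. It was the one member called lower, and here control 2 was the lowest control, still above every sorbate library. The log2 fold change was −1.39 (SE 0.23, adjusted p = 0.0050), and the 14 alternatives gave −1.55 to −1.11, each below the threshold.

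Nr3c1, the glucocorticoid receptor on chromosome 18, had 51.8, 97.3, 58.8 and 56.3 CPM in controls 1 to 4 and 90.1, 77.3, 91.8 and 101.1 CPM in sorbate 1 to 4. Controls 1, 3 and 4 lay below every sorbate library and control 2 above 3 of the 4. The log2 fold change was 0.45 (SE 0.19, adjusted p = 0.146) with all libraries, 0.70 (adjusted p = 9.85e-04) without control 2, and 0.11 (adjusted p = 0.656) with 1 surrogate variable.

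The estrogen-related receptors are orphan receptors that work with PGC-1 coactivators on genes of mitochondrial energy metabolism. Esrra (ENSMUSG00000024955, chromosome 19, 6910977 to 6921813) had 14.2, 27.5, 10.5 and 15.3 CPM in controls 1 to 4 and 35.8, 31.4, 37.7 and 40.4 CPM in sorbate 1 to 4. The groups did not overlap, with control 2 nearest to the sorbate libraries. The log2 fold change was 1.11 (SE 0.24, adjusted p = 0.0175). The call was lost without control 1, control 4 or sorbate 4 (log2 fold changes 1.03, 1.06 and 1.06, adjusted p up to 0.0571), and the rise was 1.45 without control 2 and 0.72 (adjusted p = 0.031) with 1 surrogate variable. Esrrg was low, at 0.618 ± 0.354 and 1.32 ± 0.267 CPM, and did not pass (log2 fold change 1.10, adjusted p = 0.108). It reached the count level of the filter in 3 of 4 controls and in all 4 sorbate libraries.

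The coactivator gene Ppargc1b, which encodes PGC-1-beta, a partner of the estrogen-related receptors, rose as well. It had 0.996, 3.97, 1.98 and 1.52 CPM in controls 1 to 4 and 6.62, 7.87, 5.86 and 7.42 CPM in sorbate 1 to 4 (log2 fold change 1.72, SE 0.35, adjusted p = 0.0115). Its relative Ppargc1a, named after its value was seen, had 6.85 ± 2.93 and 7.43 ± 0.118 CPM (log2 fold change 0.12, adjusted p = 0.795).

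COUP-TF receptors and the testicular receptors are orphans that bind the same direct repeats as HNF4 and RXR dimers. Nr2f2 (ENSMUSG00000030551, chromosome 7, 70351944 to 70366735), which encodes COUP-TFII, had 9.91, 18.3, 8.56 and 15.1 CPM in controls 1 to 4 and 25.4, 21.3, 25.2 and 25.2 CPM in sorbate 1 to 4. All sorbate libraries lay above all controls (log2 fold change 0.91, SE 0.21, adjusted p = 0.022). The call was lost in 5 of the 8 analyses that left out 1 library (controls 1 or 3, sorbates 1, 3 or 4; log2 fold changes 0.75 to 0.89, adjusted p up to 0.0615) and with 1 surrogate variable (0.61, adjusted p = 0.0999), and the value was 1.13 (adjusted p = 6.49e-04) without control 2.

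COUP-TFII is also made by endothelial and stellate cells of the liver. Of 8 sinusoidal endothelial markers 1 fell and 0 rose, at a summed 226 to 256 CPM in controls 1, 3 and 4, 122 CPM in control 2 and 129 to 156 CPM with sorbate. Of 8 stellate cell markers none passed (summed 165 to 241 CPM in controls, 180.5 to 277 CPM with sorbate). The part of these cells in the Nr2f2 result was not tested. In bulk tissue fewer cells of a type and less RNA per cell cannot be told apart.

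Nr2f6 had 63.4, 67.8, 57.1 and 69.7 CPM in controls and 47.8, 44.9, 51.6 and 59.0 CPM with sorbate, of which sorbate 4 alone lay within the control range (log2 fold change −0.34, SE 0.12, adjusted p = 0.0763). DESeq2 called it lower (adjusted p = 0.0479). On the opposite strand Ocel1 shares 54.4% of the exon bases of Nr2f6. Whether counting used strand is not given in the sources used here, so reads in the shared bases cannot be told apart. Over the libraries used, Ocel1 had 746 counts and Nr2f6 9469. Hnf4a did not pass (log2 fold change −0.24, 95% interval −0.69 to 0.22; −0.36 and adjusted p = 0.131 without control 2), with control 1 at 981 CPM and the other controls at 498 to 740 CPM. Nr2c1 and Nr2c2, the testicular receptors, had log2 fold changes of 0.13 and 0.26 and did not pass, and Nr2c2 passed without control 2 (0.38, adjusted p = 0.0304). Nr2c2 shares 30.7% of its exon bases with Mrps25 on the opposite strand, and among the called genes Nr2f2 shares 7.46% with B130024G19Rik, Nr3c2 3.82% with Gm10649 and Esrra 1.66% with Trmt112.

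Retinoic acid and thyroid hormone receptors did not pass. Rara, the most abundant of the 3 retinoic acid receptors at 7.01 ± 1.34 TPM in controls, had 9.91 to 15.8 CPM in controls and 15.996 to 20.7 CPM with sorbate, without overlap (log2 fold change 0.41, adjusted p = 0.105; 0.46 and adjusted p = 0.0485 without control 2). Rarg and Rarb had log2 fold changes of −0.07 and 0.47 with 95% intervals of −0.76 to 0.62 and −0.43 to 1.38, so a 1.5-fold rise lies within both intervals. Rarb shares 34.1% of its exon bases with Top2b on the opposite strand.

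Thrb, the main thyroid hormone receptor gene of hepatocytes, had 30.6, 48.4, 27.6 and 26.9 CPM in controls 1 to 4 and 34.9, 38.2, 40.03 and 55.6 CPM in sorbate 1 to 4. As for Nr3c1, control 2 lay among the sorbate libraries, and the log2 fold change went from 0.34 (adjusted p = 0.304) to 0.58 (adjusted p = 0.0146) without it. Thra had 6.96 ± 1.72 and 5.86 ± 0.429 CPM (log2 fold change −0.25, adjusted p = 0.413) and overlaps Nr1d1 on the opposite strand in 5.70% of its exon bases. Rora, a receptor that activates genes repressed by the clock receptors NR1D1 and NR1D2, had 56.4 ± 6.29 and 61.0 ± 4.95 CPM (log2 fold change 0.11, 95% interval −0.13 to 0.36).

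Of the remaining orphan receptors 1 passed. Nr6a1 (ENSMUSG00000063972, chromosome 2, 38723370 to 38927688), which encodes the germ cell nuclear factor, had 4.68, 9.38, 5.61 and 4.57 CPM in controls 1 to 4 and 9.53, 10.0, 11.8 and 9.61 CPM in sorbate 1 to 4. Control 2 lay just under the lowest sorbate library. The log2 fold change was 0.76 (SE 0.22, adjusted p = 0.0488). The call was lost in 7 of the 8 analyses that left out 1 library (all but control 2; log2 fold changes 0.65 to 0.80, adjusted p up to 0.133) and with 1 surrogate variable (0.40, adjusted p = 0.184), and the value was 1.06 without control 2. Nr5a2 had 52.3, 60.2, 48.4 and 45.1 CPM in controls and 48.3, 47.96, 55.4 and 60.6 CPM with sorbate, which overlapped throughout, with a 95% interval of −0.23 to 0.32 on the log2 scale.

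The NR4A genes are immediate-early orphan receptors that respond to stress and fasting signals. Nr4a1 had 1.29, 3.69, 0.629 and 0.935 CPM in controls 1 to 4 and 2.24, 25.4, 8.87 and 2.68 CPM in sorbate 1 to 4. Sorbates 1 and 4 lay below control 2 while sorbate 2 was far above all others, and the log2 fold change of 2.61 did not pass (SE 0.80, adjusted p = 0.0571). It was 1.51 (adjusted p = 0.164) without sorbate 2. It passed in 5 of the 14 alternatives: without control 2 (3.38, adjusted p = 0.0103), without sorbate 1 (2.95, adjusted p = 0.0458), with no filter (adjusted p = 0.0104), with DESeq2 (adjusted p = 0.0333) and with library size alone (adjusted p = 0.0479). The untested Nr4a2 was likewise highest in sorbate 2, with 4, 8, 10 and 6 counts in controls and 4, 29, 19 and 14 with sorbate. Nr4a3 had 2 and 11 counts over the 4 libraries of each group, Hnf4g 16 and 3, and Nr2f1 21 and 36, and none of these was tested.

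**Figure D3:**
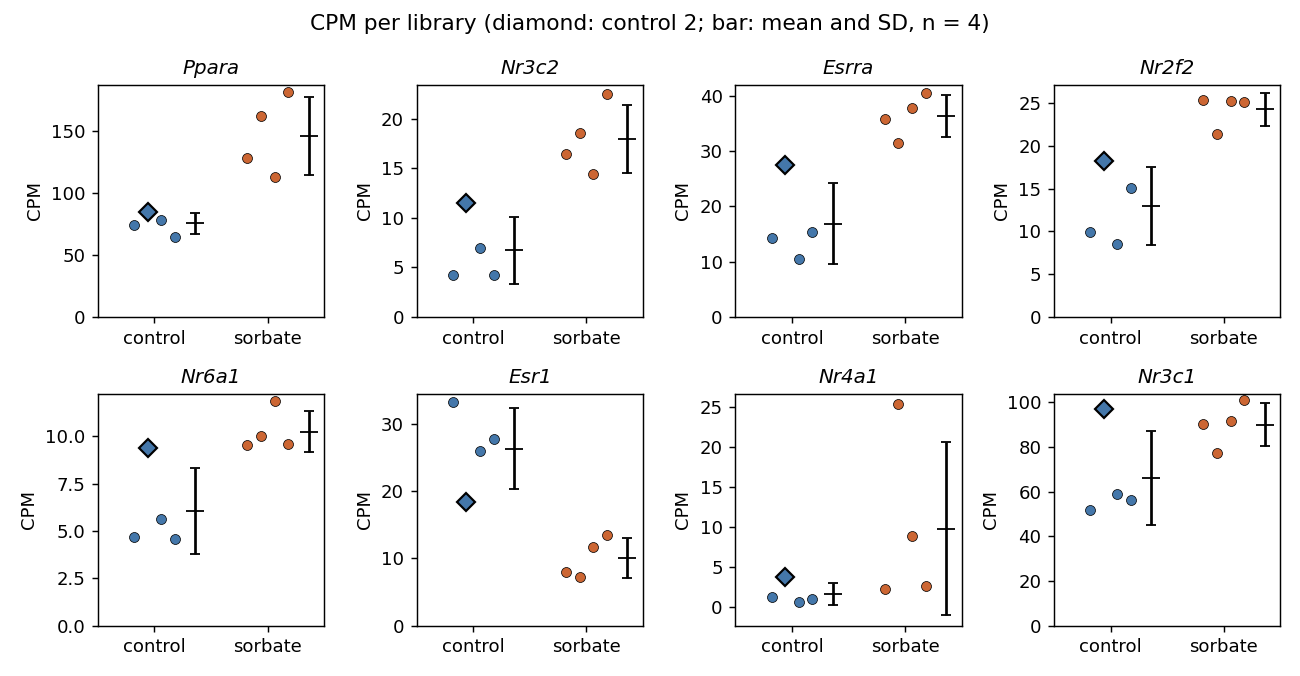
CPM in each of 4 control and 4 sorbate libraries for the 6 called receptor genes and for Nr4a1 and Nr3c1, with the mean and SD beside the points. Control 2, drawn as a diamond, lies nearest to the sorbate libraries in each of the 6 called genes and among them in Nr4a1 and Nr3c1.

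The called genes differed in how many analysis choices kept the call. Ppara, Nr3c2 and Esr1 were called in all 14 alternatives, Esrra in 11, Nr2f2 in 8 and Nr6a1 in 6. Without control 2 the test called 11 members higher and 1 lower, adding Nr3c1, Thrb, Rara, Rxrg, Nr2c2 and Nr4a1, while over all genes the calls went from 818 to 2053 higher and from 838 to 1915 lower. With another library left out 2 to 4 were higher. Control 2 lay beyond the other controls on the sorbate side in 17 of the 28 tested members, against 51.5% of all genes tested. It did so in all 6 called members, for which the share over all called genes is not given here. Kupffer cell markers, of which 4 of 8 fell and 0 rose (all detected), summed to 404 to 517 CPM in controls 1, 3 and 4, 218 CPM in control 2 and 156 to 305 CPM with sorbate. Red cell markers (4 of 5 fell, 0 rose) summed to 527 to 1373 CPM in controls 1, 3 and 4, 331 CPM in control 2 and 251 to 373 CPM with sorbate. Neutrophil markers (both of the 2 tested of 7 fell) summed to 14.1 to 25.0, 2.18 and 0.974 to 2.62 CPM in the same order, and cholangiocyte markers (2 of 4 tested fell, 0 rose) to 123 to 248, 52.0 and 27.6 to 42.4 CPM. The part of these cells in the receptor results was not tested. The median coefficient of variation of the 28 was 23.9% over the controls and 11.8% over the sorbate libraries, and over all genes tested 18.6% and 13.3%.

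**Figure D4:**
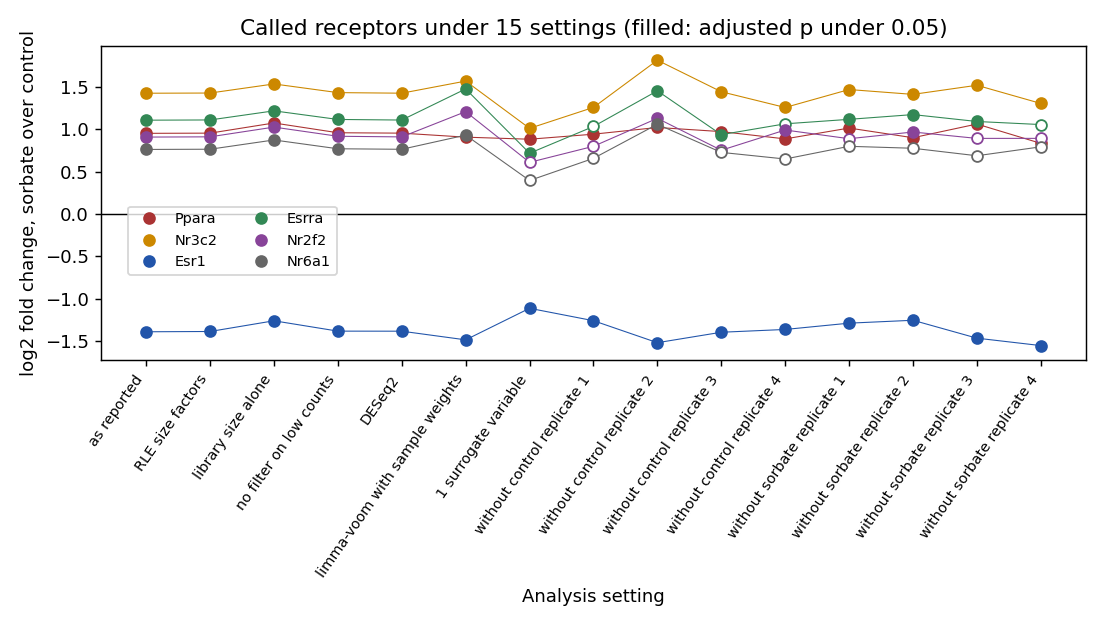
Log2 fold change of the 6 called receptor genes as reported and under 14 alternative settings, filled where the adjusted p is under 0.05. Ppara, Nr3c2 and Esr1 are filled throughout, Nr6a1 in the reported analysis and 6 alternatives.

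The sequence before the starts of the called genes was searched for motifs. Windows of 250 bases before RefSeq transcript starts (GRCm38.p6) were found for 30 of the 33 receptors, 48 windows in all. They are shown for the 4 genes called in the most alternatives (3 rose and 1 fell), 5′ to 3′ on the gene's strand. Capitals mark the GC box GGGCGG on either strand, a site of SP-type factors. The Ppara window is chr15:85735526-85735775 (plus strand), that of Nr3c2 chr8:76902080-76902329 (plus), that of Esrra chr19:6921809-6922058 (minus) and that of Esr1, for the upstream of its 2 starts, chr10:4611739-4611988 (plus).
Ppara: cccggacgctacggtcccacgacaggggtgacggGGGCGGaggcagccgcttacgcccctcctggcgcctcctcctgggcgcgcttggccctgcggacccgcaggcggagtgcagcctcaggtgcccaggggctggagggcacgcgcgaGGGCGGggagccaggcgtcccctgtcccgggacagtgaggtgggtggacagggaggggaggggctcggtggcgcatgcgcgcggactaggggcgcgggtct
Nr3c2: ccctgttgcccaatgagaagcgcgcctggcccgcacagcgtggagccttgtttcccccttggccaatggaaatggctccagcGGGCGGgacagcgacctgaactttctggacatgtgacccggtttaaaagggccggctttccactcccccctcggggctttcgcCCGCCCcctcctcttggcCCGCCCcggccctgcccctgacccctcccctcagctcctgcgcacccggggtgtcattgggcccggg
Esrra: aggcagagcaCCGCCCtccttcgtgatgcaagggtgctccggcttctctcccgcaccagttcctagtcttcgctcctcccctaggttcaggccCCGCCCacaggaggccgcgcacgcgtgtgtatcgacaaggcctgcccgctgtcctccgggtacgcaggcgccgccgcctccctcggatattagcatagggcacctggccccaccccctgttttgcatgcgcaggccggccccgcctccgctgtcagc
Esr1: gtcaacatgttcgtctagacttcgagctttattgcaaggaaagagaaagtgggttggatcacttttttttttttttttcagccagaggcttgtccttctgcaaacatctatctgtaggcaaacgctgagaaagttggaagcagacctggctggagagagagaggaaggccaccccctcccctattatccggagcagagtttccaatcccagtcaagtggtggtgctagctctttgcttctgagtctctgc

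The GC box occurred 2 times in the Ppara window, 3 times in that of Nr3c2 and 2 times in that of Esrra, which had GC contents of 76.4%, 68.4% and 68.4%. The Esr1 window shown (47.6% GC) held none, and neither did the windows of Nr2f2 (50.0%) and Nr6a1 (42.0% and 37.6%), which rose. Among the receptors' 48 windows 50.0% held it, and among all 32851 windows 32.7% did. The median GC content also differed, at 60.4% over the receptors' windows and 52.4% over all windows. The E-box CACGTG, bound by clock activators, and the D-box TTATGTAA were searched on both strands and found in no window of the 6 called genes, and they occur in 6.02% and 0.819% of all windows. The core element AGGTCA, read by many nuclear receptors, was found 2 times in 1 Nr6a1 window and in no other of these, and in 14.0% of all windows. A match is a match of letters and shows no binding.

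The rest of the superfamily was described from a list of the 16 mouse receptors outside the 33, of which 8 were tested, 4 rose and 0 fell. Nr1i3, the constitutive androstane receptor and a relative of Nr1i2, had 48.6, 77.6, 53.6 and 59.8 CPM in controls and 274, 213, 181 and 264 CPM with sorbate, without overlap (log2 fold change 1.96, SE 0.18, adjusted p = 3.5e-04). The clock repressor Nr1d2 rose by 1.01 on the log2 scale (SE 0.22, adjusted p = 0.0185). Nr1h5, a lanosterol receptor close to Nr1h4, rose by 0.99 (SE 0.27, adjusted p = 0.0366). The call of Nr1h5 was lost with 1 surrogate variable and without any library other than control 2, and that of Nr1d2 without control 3, control 4, sorbate 3 or sorbate 4. Among the controls, Nr1d2 and Nr1i3 were highest in control 2, at 86.9 and 77.6 CPM.

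Coregulators are the proteins that receptors recruit to modify chromatin. Of 17 tested coactivator genes Ppargc1b rose and 0 fell (median log2 fold change 0.12), and of 14 corepressor genes 1 rose and 1 fell (median 0.06), near the 6.14% and 6.30% of all genes. Both calls were subunits of the NCOR and HDAC3 complex: Tbl1x averaged 29.8 ± 5.35 CPM in controls and 41.5 ± 4.44 CPM with sorbate, a rise of 0.48 on the log2 scale (SE 0.14, adjusted p = 0.0493). Tbl1xr1 went from 51.1 ± 8.29 CPM to 32.9 ± 1.64 CPM and fell by 0.64 on that scale (SE 0.13, adjusted p = 0.0111). The call of Tbl1x was lost with RLE size factors, with 1 surrogate variable and in 7 of the 8 analyses that left out 1 library (all but control 2), and that of Tbl1xr1 with 1 surrogate variable.

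Known target genes of the receptors are given by list beside the receptor that reads them, as counts without a test of the list. Of 14 targets of PPAR-alpha 8 rose and 0 fell (median log2 fold change 0.72), among them the thioesterase Acot1 (3.54, SE 0.29) and the omega-hydroxylase Cyp4a10 (4.03, SE 0.40). Of 7 tested targets of the estrogen-related receptors 3 rose and 0 fell (median 0.34), namely Acadm, Idh3a and Esrra itself, which is a member of both lists. Of 12 targets of PXR and its relative 4 rose and 0 fell (median 0.75), including P450 reductase Por (1.58, SE 0.22) and Cyp3a11 (1.60, SE 0.39).

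Lists whose receptors did not pass included calls as well. Of 10 targets shared by the ROR and REV-ERB receptors 6 fell and 0 rose (median −0.98), with the clock activator Arntl at −3.72 (SE 0.22) and the vasopressin receptor Avpr1a at −1.70 (SE 0.18). Of 12 glucocorticoid targets 3 fell and 0 rose (median −0.20): Cdkn1a, Mt1 and Mt2. Of 10 LXR targets 4 rose and 1 fell (median 0.03), the sterol exporters Abcg5 and Abcg8 among the former and the desaturase Scd1, named after its value was seen, the latter. Of 9 FXR targets 1 rose and 1 fell, of 7 retinoic acid targets 0 rose and 2 fell, of 7 thyroid hormone targets 1 rose, and of 10 HNF4-alpha targets 1 rose. Beside them, 16 clock genes, which oscillate with the time of day, gave 10 higher and 4 lower. The 4 lower genes, Arntl among them, are also counted in the 6 ROR and REV-ERB targets that fell. The 16 clock genes summed to 319 to 341 CPM in controls 1, 3 and 4 and to 415 CPM in control 2. With sorbate the sum was 802 to 965 CPM. The hour of collection is not given in the sources used here. The part of the clock in the receptor changes was not tested.

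**Figure D5:**
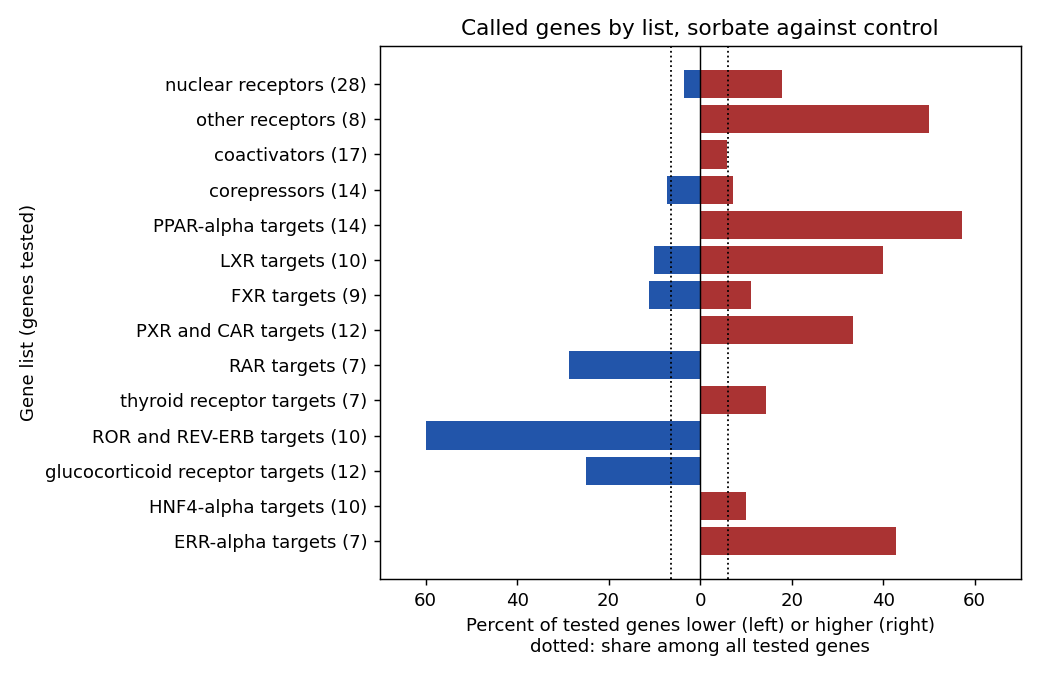
Percent of tested genes of each receptor, coregulator and target list called higher (red, right) or lower (blue, left) with sorbate, with the number tested in parentheses and the shares among all genes as dotted lines at 6.14% and 6.30%. Of the 14 lists drawn, which leave out clock genes and cell type markers, PPAR-alpha targets lie farthest to the right and ROR and REV-ERB targets farthest to the left.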

How the data were processed

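Gene expression was measured by poly(A) RNA sequencing of 8 liver RNA samples, as single reads per the labels' protocols. The authors deposited raw counts, whole reads per gene. FastQC, HISAT2 2.1.0, Subread and edgeR and the build GRCm38 are named per the submitters' processing notes, while settings, annotation release and strand use were not given in these sources. Another 4 columns of the table fit no sample's label and stayed out. Groups follow the treatment label.

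Genes were filtered with filterByExpr (count minimum 10), scaled by TMM and compared by edgeR 4.0.16 in R 4.3.3 (quasi-likelihood F test, two-sided). P-values were adjusted by Benjamini-Hochberg over 13312 genes, with a threshold of 0.05. Standard errors and 95% intervals come from the unshrunk coefficient and the F statistic. TPM used merged exon lengths of GENCODE vM21 (GRCm38), found for 55227 of 55487 genes. The members and lists were chosen with earlier results of these data known. Genes named in full were the called members and the 10 most abundant, then the other members by lowest p or beside a called relative, and from each list up to 4 called genes of lowest p; some genes counted in the lists are not reported here by name. On simulated counts of this comparison (13113 genes tested, 200 changed) 11.9% of 1.5-fold, 64.2% of 2-fold and 98.5% of 4-fold changes were called, and 7.20% of 125 calls were false. The data called 1656 genes, more than were changed there. The adjusted p depends on that number, so these rates may not hold for the data. Alternatives were RLE size factors, library size alone, no filter, DESeq2 1.42.0, limma-voom with sample weights (limma 3.58.1), 1 surrogate variable (sva 3.50.0), each library left out, and another transcript length.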

Additional observations from a re-analysis of the deposited data

Results flagged for a closer look

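In 3 of the 56 groups of 4 libraries examined (28 tested receptors in each treatment group), 1 library lay far from the other 3, and chance gives this in about 1 group in 20. Nr3c1 was 97.3 CPM in control 2 against 51.8 to 58.8 CPM in controls 1, 3 and 4. Rara was 9.91 CPM in control 3 against 15.0 to 15.8 CPM in controls 1, 2 and 4, and without control 3 the gene's log2 fold change was 0.28 (adjusted p = 0.216). Nr2f2 was 21.3 CPM in sorbate 2 against 25.2 to 25.4 CPM in the other sorbate libraries, and stayed above every control there.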

How the results depend on the processing

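No paired analysis was made. Sample titles share last digits between the groups, but nothing in the labels states that these link libraries. Of the 392 comparisons of a tested receptor with an alternative setting, 339 kept direction and side of the threshold, 17 lost a call, 21 gained one and 15 changed sign, none of the last in a called gene. All genes called higher numbered 818, and 1300 with library size alone, 1968 with limma-voom and sample weights, 313 with 1 surrogate variable, and 332 to 2053 with 1 library left out (2053 without control 2). Those called lower numbered 838, and 550, 1944, 293 and 357 to 1915. Library size alone put the median log2 fold change over genes tested at 0.11. Receptors called higher numbered 5, and 9 with library size alone, 8 with DESeq2, 10 with limma-voom, 3 with the surrogate variable and 2 to 11 with 1 library left out, and DESeq2 called 2 lower in place of 1. Coregulators and other receptors called higher numbered 6, and 3 to 8 with 1 library left out. Of these genes 1 was called lower, and 2 with DESeq2, 4 with limma-voom, 0 with the surrogate variable and 1 to 3 with 1 library left out. The sign changes (log2 fold changes) were, with the surrogate variable, Hnf4a 0.12, Nr5a2 −0.098, Rora −0.028, Nr2c1 −0.048, Rarg 0.45 and Rarb −0.0014. Library size alone gave Nr1h2 0.011 and Rarg 0.068, and limma-voom Rarg 0.10. With 1 library left out, Rxra ran from −2.21e-04 (control 2) to 0.16, Nr5a2 from −0.024 (sorbate 4; −0.016 without control 4) to 0.14, and Rarg from −0.24 to 0.22 (control 1; 0.05 without control 4 and 0.0011 without sorbate 1). The cause was not tested. The summed receptor level was 877 TPM and stayed within 1 SD with longest-transcript lengths and with any control left out. At this depth 5 of the 33 receptors did not pass the filter and have no test.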
